A study of Homo sapiens with 5 samples.

Results

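The 9 genes described here form the core of the NRF2 antioxidant system. They are NFE2L2, which encodes the transcription factor NRF2, its inhibitor KEAP1, and 7 well-known NRF2 targets: NQO1, HMOX1, GCLC, GCLM, SRXN1, TXNRD1 and SLC7A11. All 9 were found among the 23459 genes of the count table by matching Entrez identifiers to NCBI symbols, and all 9 had enough counts to be tested. Messenger RNA was measured in MCF10A SAM cells, derivatives of an immortalized human mammary epithelial line that were picked as single clones and carry dCas9-VP64 and MCP-p65-HSF1, activators that a guide RNA brings to a promoter. The control group (NTC, 3 libraries) received a non-targeting guide and the other group (sgJUN#1, 2 libraries) a guide to the JUN promoter. Both groups carry the activators, grew in the same medium with EGF, insulin, hydrocortisone and cholera toxin, and represent 1 guide each. The labels name no oxidant or NRF2 activator, and do not state whether the groups came from 1 clone. The study calls the replicates of this comparison biological, and neither it nor the labels say how the cultures were separated, so the p-values measure the spread between these libraries.

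NRF2 is held in the cytoplasm by KEAP1, an adaptor of the CUL3 ubiquitin ligase, and is degraded under resting conditions. When oxidants or electrophiles modify KEAP1, NRF2 accumulates, pairs with a small MAF protein and binds antioxidant response elements, where it competes with the repressor BACH1. Its targets make and reduce glutathione and thioredoxin, supply NADPH and remove quinones and heme. The core of an antioxidant response element resembles the site bound by AP-1, the family of dimeric factors to which JUN belongs, and JUN proteins can also dimerize with NRF2-related factors.

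Levels are in CPM, which puts the counts of libraries of different depth on 1 scale. In sgJUN#1 cells the cystine transporter gene SLC7A11 stood at 36.4% of the NTC mean and the thioredoxin reductase gene TXNRD1 at 63.5%, with both sgJUN#1 libraries below all NTC libraries. NQO1 and GCLM were also below all NTC libraries, at 66.8% and 71.1%. NFE2L2 and KEAP1 themselves stood at 87.4% and 89.6%, with overlapping groups. None of these differences passed the threshold across all genes. With edgeR's quasi-likelihood test, 0 of 9 genes were called at a Benjamini-Hochberg false discovery rate (FDR) under 0.05, where 0.206% of the 13616 tested genes were. At an unadjusted p-value under 0.05, 2 of 9 were lower, SLC7A11 and TXNRD1, against 4.36% of all tested genes. In the alternative fits that kept both sgJUN#1 libraries, from 2 to 4 were lower. There the share of all genes ran from 1.96% (DESeq2, over all genes of the table) to 5.69% (edgeR without NTC replicate 1). DESeq2 called 1 of the 9 (SLC7A11) and 0.975% of all genes it adjusted, and limma-voom called 0, with 0.147% of all genes. All 9 log2 ratios (fitted log2 fold changes, sgJUN#1 over NTC) were below 0, as were 51% of all tested genes, and their median was -0.49, where that of all tested genes was -0.008. Leaving out sgJUN#1 replicate 2 left 7 of 9 below 0, with a median of -0.34.

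**Figure D1:**
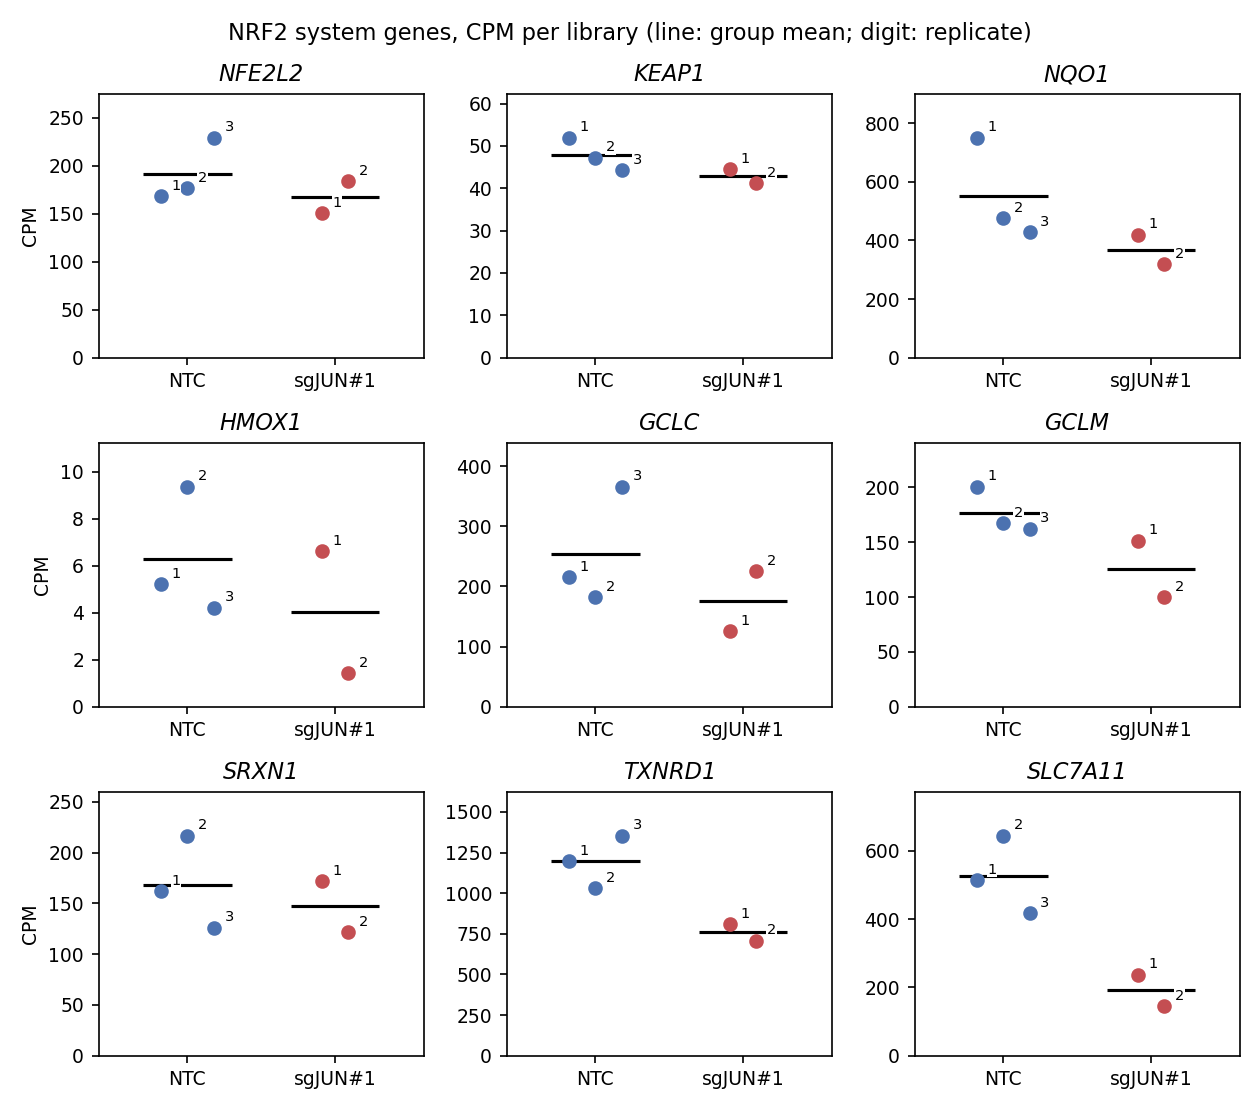
Normalized counts (CPM, y axis, from 0) of the 9 NRF2 system genes in each NTC (blue) and sgJUN#1 (red) library. The digit beside a point is the replicate number and the line is the group mean. SLC7A11, TXNRD1, NQO1 and GCLM show both sgJUN#1 points below all NTC points, and the other 5 genes overlap.

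Library totals ranged from 2455627 to 4988062 counts, so that the upper limit allowed by a count of 0 (3 counts) lay between 0.601 and 1.22 CPM, for counting error alone. The targeted gene JUN (Entrez 3725) held 25.0, 36.2 and 9.32 CPM in NTC and 172 and 265 CPM in sgJUN#1, without overlap. Its log2 ratio was 3.25 (SE 0.484), at an edgeR FDR of 0.0733. All 10 mammary epithelial markers checked were detected, although KRT17 held 0 counts in NTC replicate 1 and KRT14 at most 3.26 CPM. Their summed level ran from 696 to 1353 CPM in NTC and from 679 to 991 CPM in sgJUN#1. EPCAM, an epithelial adhesion molecule, stood at 23.7, 7.33 and 23.3 CPM in NTC and 144 and 56.5 CPM in sgJUN#1 (edgeR FDR 0.210). Of the 10, EPCAM, CDH3 and KRT17 had both sgJUN#1 libraries above all NTC libraries, as did 12.2% of all tested genes. EGFR and KRT14 had both below, as did 12.8%. The log2 ratios were 0.69 (SE 0.265) for CDH3, 1.80 (SE 0.834) for KRT17, -0.68 (SE 0.325) for EGFR and -1.16 (SE 0.590) for KRT14. In the other 5, CDH1 among them at 0.85 (SE 0.383), the groups overlapped, and 0 of the 10 were called by edgeR. PTPRC, PECAM1, ADIPOQ and COL1A1, which mark leukocytes, endothelium, adipocytes and fibroblasts, were at most 2.27 CPM in any library. ACTA2, shared by myoepithelium and myofibroblasts, held 29.2 to 47.6 CPM in NTC and 53.7 and 65.1 CPM in sgJUN#1, and ESR1, a luminal marker, 3.30 to 8.05 CPM. The 6 markers of other cell types summed to 33.8 to 52.9 CPM in NTC and to 64.2 and 76.9 CPM in sgJUN#1. The part of this difference in the results that follow was not tested.

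The transcription factor and its inhibitor are given first, with positions on GRCh37 throughout. NFE2L2 (Entrez 4780, GRCh37 chromosome 2, 178083395 to 178257484, minus strand) held 169, 177 and 229 CPM in NTC replicates 1, 2 and 3 and 151 and 184 CPM in sgJUN#1 replicates 1 and 2. The groups overlapped, since sgJUN#1 replicate 2 lay above NTC replicates 1 and 2. The fitted log2 ratio of NFE2L2 was -0.20 (SE 0.216, edgeR FDR 0.858). It was nearer 0 when NTC replicate 3 (-0.04) or sgJUN#1 replicate 1 (-0.06) was left out, and -0.34 when sgJUN#1 replicate 2 was. The annotated span of NFE2L2 also covers AGPS and HNRNPA3 on the other strand, whose counts did not follow those of NFE2L2. KEAP1 (Entrez 9817, chromosome 19, 10596801 to 10614234, minus strand) held 52.0, 47.2 and 44.4 CPM in NTC and 44.6 and 41.1 CPM in sgJUN#1. Its 5 values lay within a narrow range, and sgJUN#1 replicate 1 exceeded NTC replicate 3 by a small margin. KEAP1 had a log2 ratio of -0.16 (SE 0.204, edgeR FDR 0.883), which was -0.09 without NTC replicate 1 and -0.10 without sgJUN#1 replicate 2.

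Among their partners and regulators, 0 of 11 tested genes were called and 0 had an unadjusted edgeR p-value under 0.05. CUL3, the scaffold of the ligase that ubiquitinates NRF2, had a log2 ratio of -0.16 (SE 0.201). Of the small MAF genes, MAFF was at 0.001 (SE 0.222), MAFK at -0.26 (SE 0.354) and MAFG at -0.28 (SE 0.193). MAFG was the 1 gene of this list with both sgJUN#1 libraries below all NTC libraries, as in 12.8% of all tested genes, at 132, 125 and 146 CPM in NTC and 119 and 102 CPM in sgJUN#1. The repressor BACH1 was at -0.16 (SE 0.227) and SQSTM1, an autophagy receptor that sequesters KEAP1, at 0.08 (SE 0.189). The related factor NFE2L1 had -0.34 (SE 0.285) and BTRC, part of a second ligase for NRF2, -0.41 (SE 0.285). The edgeR FDRs of the 11 genes were at least 0.750.

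SLC7A11 encodes the light chain of the cystine/glutamate exchanger, which brings in the cysteine that limits glutathione synthesis. Of the 9 genes, its log2 ratio was the farthest from 0. SLC7A11 (Entrez 23657, chromosome 4, 139085251 to 139163503, minus strand) held 515, 645 and 419 CPM in NTC, a mean of 526 ± 114 CPM (SD, n = 3). In sgJUN#1 it held 238 and 146 CPM, a mean of 192 ± 65.2 CPM (SD, n = 2). The highest sgJUN#1 library was thus well below the lowest NTC library. In these bulk libraries, a lower level in every cell and fewer cells with the transcript cannot be told apart. Its log2 ratio was -1.45 (SE 0.277), at an unadjusted edgeR p-value of 0.000444 and an FDR of 0.106. Whether SLC7A11 was called depended on the test and on single libraries. Among the settings tried, it passed for example with DESeq2 (FDR 0.00031) and in edgeR without a filter (0.00175, where 0.756% of all genes passed) or when NTC replicate 3 was left out (0.0225, where 0.439% passed). It missed the threshold with limma-voom (FDR 0.124) and when NTC replicate 1 or 2 (edgeR FDR 0.336 and 0.153) or sgJUN#1 replicate 1 or 2 (edgeR FDR 0.0973 and 0.548) was left out. Across all 13 alternative fits its log2 ratio ran from -1.85 to -1.14.

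Nearly the same counts were listed for a neighbor of SLC7A11. SLC7A11-AS1 (Entrez 641364, chromosome 4, 138978618 to 139099331, plus strand) is an antisense gene whose span overlaps the 3′ end of SLC7A11, the region read by the 3′ assay. It held 1795, 1482 and 1727 counts in NTC and 1092 and 391 counts in sgJUN#1, where SLC7A11 held 1873, 1585 and 1888 counts and 1152 and 407 counts. The antisense row thus had between 91.5% and 96.1% of the SLC7A11 counts in each library. It gave nearly the same log2 ratio, -1.43 (SE 0.278, edgeR FDR 0.108). How strand was treated in counting is not given in the sources used here, and reads of the 2 genes cannot be told apart in this table.

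**Figure D2:**
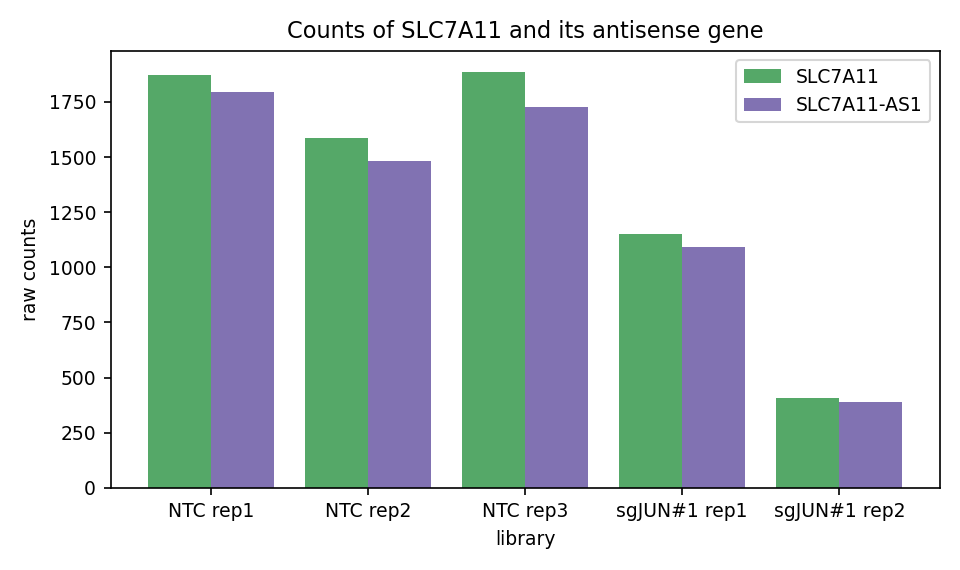
Raw counts (y axis, from 0) of SLC7A11 (green) and of the overlapping antisense gene SLC7A11-AS1 (purple) in the 5 libraries. The bars of a pair are nearly equal in every library, with the antisense gene at 91.5% to 96.1% of SLC7A11, and both are shortest in sgJUN#1 replicate 2.

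SLC3A2, the heavy chain that carries the SLC7A11 protein to the membrane, had a log2 ratio nearer 0. It held 120.2, 108 and 108 CPM in NTC and 101 and 86.2 CPM in sgJUN#1, again without overlap. For SLC3A2 the log2 ratio was -0.26 (SE 0.193, edgeR FDR 0.767). SLC7A11 is also a target of ATF4, the factor of the amino acid stress response. ATF4 had 385, 406 and 427 CPM in NTC and 324 and 299 CPM in sgJUN#1 (log2 ratio -0.38, SE 0.182, edgeR FDR 0.628). Of the 9 genes in the ATF4 list, 0 were called and 0 had an unadjusted edgeR p-value under 0.05. Their median log2 ratio was -0.26, and 8 of the 9 were below 0, as were 51% of all tested genes. In 3 of them, ATF4, ATF3 and PHGDH, both sgJUN#1 libraries lay below all NTC libraries, as in 12.8% of all tested genes. PHGDH, the first enzyme of serine synthesis, had the largest difference of the list, with a log2 ratio of -0.65 (SE 0.351), and DDIT3, a stress-induced transcription factor, was at -0.35 (SE 0.272).

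Glutamate-cysteine ligase, which joins cysteine to glutamate in the limiting step of glutathione synthesis, has a catalytic subunit (GCLC) and a modifier subunit (GCLM). GCLC (Entrez 2729, chromosome 6, 53362139 to 53481768, minus strand) held 215, 182 and 366 CPM in NTC and 126 and 225 CPM in sgJUN#1. NTC replicate 3 stood apart from the other 4 libraries, and sgJUN#1 replicate 2 lay above NTC replicates 1 and 2. GCLC had a log2 ratio of -0.54 (SE 0.348, edgeR FDR 0.738), and leaving out NTC replicate 3, sgJUN#1 replicate 1 or sgJUN#1 replicate 2 moved it to -0.18, -0.17 and -1.002. GCLM (Entrez 2730, chromosome 1, 94350755 to 94375012, minus strand) held 201, 168 and 162 CPM in NTC and 151 and 100.2 CPM in sgJUN#1. Here the groups did not overlap, although sgJUN#1 replicate 1 was close to NTC replicate 3. GCLM had a log2 ratio of -0.49 (SE 0.232, edgeR FDR 0.626), which was -0.82 or -0.22 when sgJUN#1 replicate 1 or 2 was left out. The subunits therefore had similar fold changes in the fit but different patterns over the libraries.

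The remaining genes of glutathione handling lay on both sides of 0. Of 17 tested, 0 were called, 10 were above 0 and 7 below, and the median log2 ratio was 0.09. GSS, the enzyme of the second step of synthesis, held 23.9, 22.8 and 24.8 CPM in NTC and 28.1 and 28.3 CPM in sgJUN#1, with a log2 ratio of 0.24 (SE 0.220). GLRX2, a mitochondrial glutaredoxin, and GSTO1, an omega-class glutathione transferase, were higher at an unadjusted edgeR p-value under 0.05, as were 4.02% of all tested genes, with log2 ratios of 0.65 (SE 0.287) and 0.50 (SE 0.209). GGT5, which cleaves extracellular glutathione conjugates, was the 1 gene of the list lower at that p-value, as were 4.36% of all tested genes, with a log2 ratio of -2.23 (SE 0.921). Its NTC libraries ran from 3.58 to 27.3 CPM and overlapped the sgJUN#1 libraries at 4.13 and 1.07 CPM. OPLAH, which returns 5-oxoproline to glutamate, had -0.76 (SE 0.577).

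Thioredoxin and peroxiredoxin are kept reduced by TXNRD1 and SRXN1. TXNRD1, the cytosolic thioredoxin reductase (Entrez 7296, chromosome 12, 104609557 to 104744085, plus strand), held 1198, 1033 and 1355 CPM in NTC and 809 and 709 CPM in sgJUN#1. Both sgJUN#1 libraries lay below all NTC libraries and close to each other. The means were 1195 ± 161 CPM (SD, n = 3) and 759 ± 70.8 CPM (SD, n = 2) and the log2 ratio was -0.66 (SE 0.195, edgeR FDR 0.352). In all 13 alternative fits the log2 ratio of TXNRD1 lay between -0.75 and -0.56, and 0 of them called it. EID3, which lies within the TXNRD1 span, held at most 14 counts in any library. SRXN1, the sulfiredoxin that restores over-oxidized peroxiredoxins (Entrez 140809, chromosome 20, 627259 to 633844, minus strand), held 162, 217 and 126 CPM in NTC and 172 and 122 CPM in sgJUN#1. These libraries overlapped throughout, with a log2 ratio of -0.19 (SE 0.266, edgeR FDR 0.894). Its sign changed when NTC replicate 2 (0.03) or sgJUN#1 replicate 2 (0.04) was left out.

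NQO1, which reduces quinones by 2 electrons at a time (Entrez 1728, chromosome 16, 69740899 to 69760571, minus strand), held 751, 476 and 429 CPM in NTC. In sgJUN#1 it held 420.0 and 318 CPM, so that sgJUN#1 replicate 1 was close to NTC replicate 3, and NTC replicate 1 stood above the other libraries. NQO1 had a log2 ratio of -0.58 (SE 0.271, edgeR FDR 0.621), which was -0.30 when NTC replicate 1 was left out. HMOX1, the inducible heme oxygenase (Entrez 3162, chromosome 22, 35776354 to 35790207, plus strand), was scarce in both groups. It held 19, 23 and 19 counts in NTC and 32 and 4 counts in sgJUN#1, or 5.23, 9.36 and 4.21 CPM and 6.60 and 1.43 CPM. The 2 sgJUN#1 libraries lay on either side of the NTC mean, and the log2 ratio of -0.47 (SE 0.584, edgeR FDR 0.875) became -2.06 or 0.13 when sgJUN#1 replicate 1 or 2 was left out. With few counts and sgJUN#1 libraries that disagreed, no difference in HMOX1 was detected. The annotated spans of KEAP1, NQO1, GCLC and SRXN1 overlap further genes, so that their counts are less certain than those of HMOX1 and GCLM, which overlap none.

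A separate list of heme and iron handling held 7 tested genes, and whether these are NRF2 targets too was not checked. Of the 7, 0 were called, where 0.206% of all tested genes were. SLC48A1 and BLVRA, 2 of the 7, were lower at an unadjusted edgeR p-value under 0.05, as were 4.36% of all tested genes. SLC48A1, a heme transporter of the lysosome, held 35.8, 30.9 and 40.8 CPM in NTC and 19.4 and 15.4 CPM in sgJUN#1. The groups did not overlap, and the log2 ratio was -1.04 (SE 0.249, edgeR FDR 0.216). BLVRA, a biliverdin reductase that acts after heme oxygenase, was at -0.52 (SE 0.214), also without overlap. FECH, which inserts iron into heme, was at -0.25 (SE 0.223), and the transferrin receptor gene TFRC at 0.35 (SE 0.216). The list's median was -0.12.

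To place the 9 genes among others of the same program, 26 further NRF2 targets were examined. This list, like the 9 genes, was chosen with earlier results of these data known. Its counts are therefore descriptions and no independent check. Of these, 23 were tested and 3 (AKR1B10, GPX2 and OSGIN1) had too few counts. By edgeR 0 of 23 were called, but 17 were below 0, the median log2 ratio was -0.49, and 10 were lower at an unadjusted p-value under 0.05, where 4.36% of all tested genes were. At that p-value 0 of the list were higher, against 4.02% of all tested genes. In 13 of the 23 both sgJUN#1 libraries lay below all NTC libraries, as in 12.8% of all tested genes, against 4 of the 9 core genes. The reverse held for 1, ABCC2, and for 12.2% of all tested genes. DESeq2 called 3 of the list, AKR1C2, TKT and PIR, and limma-voom 0. The number at an unadjusted edgeR p-value under 0.05 that were lower was 3 without sgJUN#1 replicate 2 and 6 without sgJUN#1 replicate 1, where 3.08% and 2.07% of all tested genes were lower. It was 9 to 11 without single NTC libraries, where 3.79% to 5.69% were. Genes of this list are named by function below, some of them after their values were seen. The rest of the tested genes, by log2 ratio, were MGST1 (0.01), UGDH (-0.19), TRIM16 (-0.37), PTGR1 (-0.51), EPHX1 (-0.61) and BLVRB (-0.69).

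**Figure D3:**
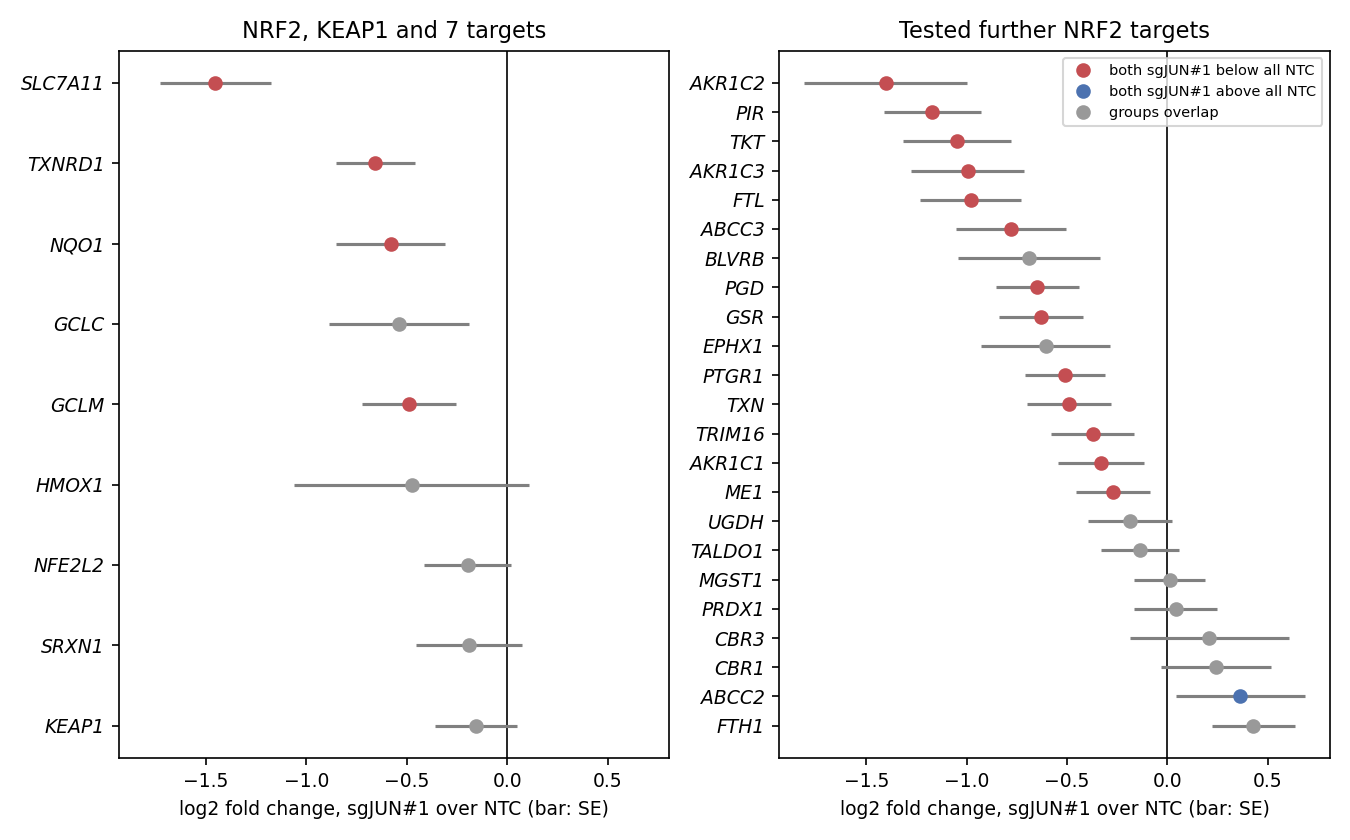
Log2 fold changes (x axis, sgJUN#1 over NTC, bars are SE) of the 9 core genes (left) and of the 23 tested further NRF2 targets (right). Red marks genes with both sgJUN#1 libraries below all NTC libraries (4 on the left and 13 on the right), blue the reverse (ABCC2) and gray genes whose groups overlap.

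The genes of NADPH supply and the pentose phosphate pathway are given first, grouped after their values were seen. PGD, an oxidative enzyme of the pentose phosphate pathway, had a log2 ratio of -0.65 (SE 0.207). TKT, the transketolase of the same pathway, held 1248, 1340 and 2072 CPM in NTC and 881 and 623 CPM in sgJUN#1 (log2 ratio -1.05, SE 0.269, edgeR FDR 0.264). TKT was called by DESeq2 (FDR 0.0357) and in edgeR without a filter (FDR 0.0384). In PGD and TKT the groups did not overlap. TALDO1, the transaldolase, was at -0.14 (SE 0.194) with overlapping groups. ME1, the cytosolic malic enzyme, varied little among NTC libraries at 178, 181 and 189 CPM and stood at 154 and 149 CPM in sgJUN#1, with a log2 ratio of -0.27 (SE 0.182, edgeR FDR 0.744).

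Among the reductases, GSR, which returns oxidized glutathione to its reduced form, was at -0.63 (SE 0.209) and TXN, thioredoxin itself, at -0.49 (SE 0.210), both without overlap. PRDX1, the peroxiredoxin that thioredoxin serves, was at 0.04 (SE 0.207) and the groups overlapped. The aldo-keto reductases AKR1C2 and AKR1C3 had -1.40 (SE 0.404, edgeR FDR 0.352) and -0.99 (SE 0.281, edgeR FDR 0.315). AKR1C2 held 537, 584 and 848 CPM in NTC and 359 and 136 CPM in sgJUN#1, a wide gap between the sgJUN#1 libraries. AKR1C2 was called by DESeq2 (FDR 0.0146) and in edgeR when sgJUN#1 replicate 1 was left out (log2 ratio -2.27, FDR 0.0419). AKR1C1 was at -0.33 (SE 0.216). These 3 genes are closely similar copies, and how reads were divided among them is uncertain. The carbonyl reductases CBR1 and CBR3 were at 0.24 (SE 0.274) and 0.21 (SE 0.395), with overlapping groups.

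PIR encodes pirin, an iron-containing nuclear protein, and had the smallest unadjusted p-value of the list. It held 149, 98.9 and 106 CPM in NTC and 55.9 and 48.7 CPM in sgJUN#1. The 2 sgJUN#1 libraries were close together and far below the NTC libraries, with a log2 ratio of -1.17 (SE 0.242), an unadjusted edgeR p-value of 0.000779 and an FDR of 0.131. PIR was called by DESeq2 and in edgeR without a filter, both at an FDR of 0.0119. The span of PIR overlaps BMX on the other strand, and that of FTH1 overlaps BEST1. The ferritin chains, which store iron, had log2 ratios of opposite sign. FTL, the light chain, held 1658, 1087 and 1142 CPM in NTC and 773 and 540.3 CPM in sgJUN#1 (log2 ratio -0.98, SE 0.253, edgeR FDR 0.264). In edgeR without a filter FTL was called, at an FDR of 0.0467. FTH1, the heavy chain, was at 0.43 (SE 0.206, edgeR FDR 0.634), with overlapping groups. Both ferritin genes have processed copies in the genome, which makes their counts less certain. The exporters of conjugated compounds also differed, with ABCC3 at -0.78 (SE 0.273) and ABCC2 at 0.36 (SE 0.321, on 15 to 43 counts per library).

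**Figure D4:**
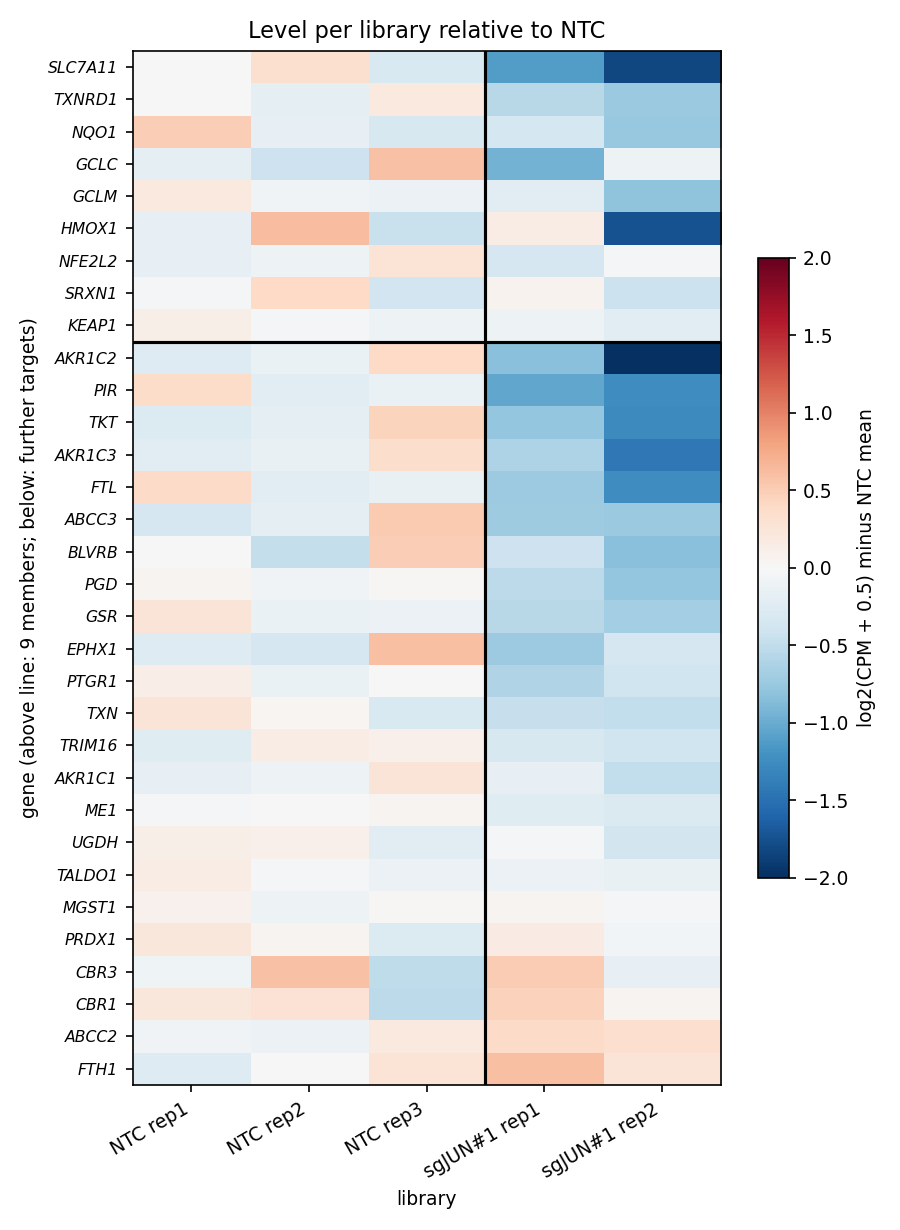
Level of the 9 core genes (above the line) and of the 23 tested further NRF2 targets (below) in each library, as log2(CPM + 0.5) minus the mean of the NTC libraries (blue is lower, red is higher). The sgJUN#1 columns are mostly blue, more so in replicate 2, and FTH1, ABCC2, CBR1 and CBR3 at the bottom are not lower in both.

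The sgJUN#1 libraries differed from each other in the size of the difference. Averaged over the 9 core genes, log2(CPM + 0.5) relative to the NTC mean was 0.03, 0.04 and -0.07 in NTC replicates 1, 2 and 3, and -0.38 and -0.74 in sgJUN#1 replicates 1 and 2. Over the 23 further targets it was 0.003, -0.06 and 0.06 in NTC and -0.29 and -0.56 in sgJUN#1. These averages are descriptions of chosen genes, given with no test. Replicate 2 was also the shallower sgJUN#1 library, with 2766254 counts against 4988062, and the part of depth in this was not tested. GCLC, NFE2L2, EPHX1 and PTGR1 were exceptions, with the lower value in replicate 1.

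Antioxidant enzymes that are not in the NRF2 target lists served as a comparison of levels. Whether they, or the genes of the glutathione list, are NRF2 targets too was not checked. The lists therefore do not separate NRF2 targets from other genes. Of 18 tested superoxide dismutases, catalase, peroxidases, peroxiredoxins and sestrins, 0 were called, 10 were above 0 and 8 below, and the median log2 ratio was 0.03. SESN2, a stress-induced sestrin, held 16.2, 17.9 and 16.9 CPM in NTC and 28.7 and 24.7 CPM in sgJUN#1, without overlap, with a log2 ratio of 0.66 (SE 0.234, edgeR FDR 0.465). SESN3, another sestrin, was at 0.66 (SE 0.523), GPX8, a peroxidase of the endoplasmic reticulum, at 0.48 (SE 0.251), and GPX1, the main cytosolic glutathione peroxidase, at 0.40 (SE 0.210). The mitochondrial thioredoxin reductase gene TXNRD2 was at -0.30 (SE 0.349), on 24 to 62 counts per library. A test of the difference between these lists was not made.

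**Figure D5:**
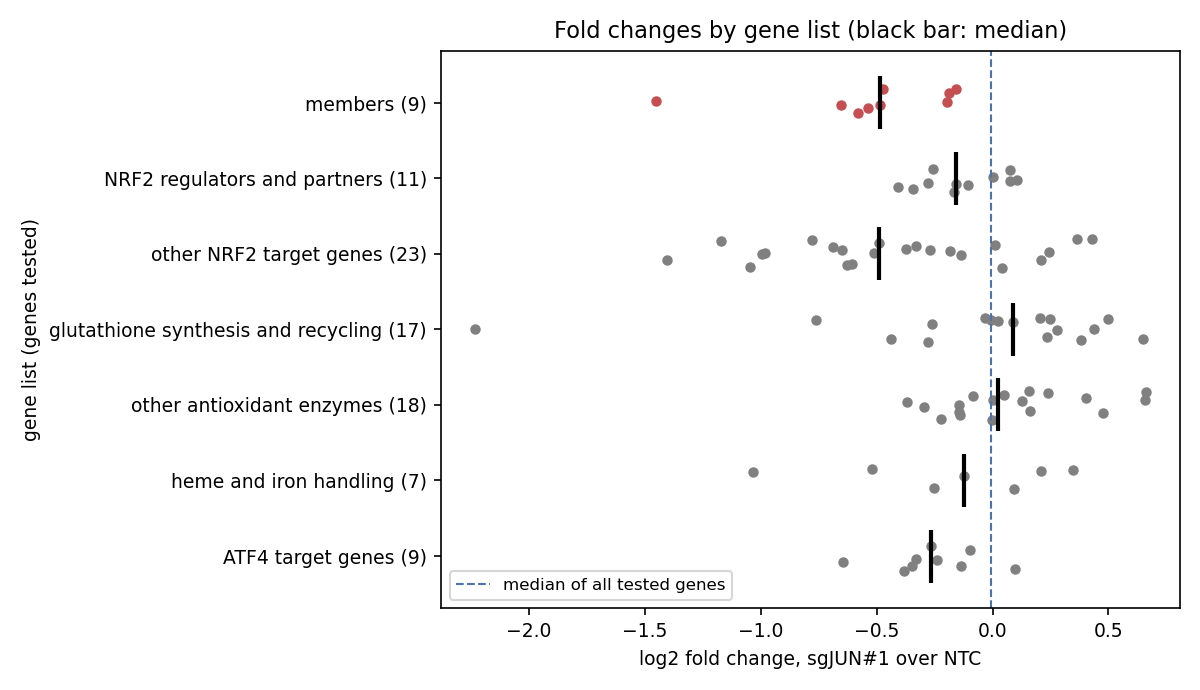
Log2 fold changes (x axis, sgJUN#1 over NTC) of the tested genes of each list, 1 point per gene, with the list's median as a black bar and the median of all tested genes as a dashed line at -0.008. The medians of the 9 core genes (named members on the axis) and the 23 further NRF2 targets both lie at -0.49. Those of the ATF4 list, the regulators and partners, and the heme and iron list lie at -0.26, -0.16 and -0.12. Those of the glutathione list and the other antioxidant enzymes lie at 0.09 and 0.03.

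Promoter sequences from RefSeq (GRCh38.p14, 250 bases before to 50 after each start) were available for 7 of the 9 core genes, and HMOX1 and SLC7A11 had no entry. On both strands, the antioxidant response element core TGACNNNGC was searched for, and the AP-1 site TGANTCA, which can overlap it. The element core was found in 3 of 7 core genes (GCLM, TXNRD1 and KEAP1) and in 7 of 20 further targets with an entry, and in 13.3% of all 35116 promoter windows. The AP-1 site was found in 0 of the 7 core genes, in 3 of the 20 further targets (ME1, OSGIN1 and PIR), and in 7.71% of all windows. A gene was counted if any of its windows held a match, and a gene such as TXNRD1 can have more than 1 window. The percentages are over single windows, so the gene counts and the percentages are not on the same basis. For 4 genes whose groups did not overlap, chosen after their values were seen, 1 match upstream of a start is shown. Whether these windows lie within other annotated transcripts was not checked. Each window is 40 bases, 5′ to 3′ on the gene's strand, with the element core in capitals.
GCLM: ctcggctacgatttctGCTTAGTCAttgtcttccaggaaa
TXNRD1: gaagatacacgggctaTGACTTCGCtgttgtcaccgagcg
PGD: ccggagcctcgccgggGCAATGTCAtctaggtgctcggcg
ME1: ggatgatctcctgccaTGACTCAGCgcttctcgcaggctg

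The GCLM element begins 34 bases before the start (chr1:93909441-93909480, minus strand) and the TXNRD1 element 99 bases before (chr12:104215664-104215703, plus strand). The PGD element begins 201 bases before the start (chr1:10398847-10398886, plus strand) and the ME1 element 137 bases before (chr6:83431165-83431204, minus strand). In GCLM and PGD the element reads on the opposite strand, so that its reverse complement is in capitals. In ME1 the same letters, TGACTCAGC, hold an element core and an AP-1 site. These matches are letters only, and binding was not measured in these libraries.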

How the data were processed

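Libraries of 3 NTC and 2 sgJUN#1 samples were made by the authors with a QuantSeq 3′ mRNA-Seq kit (forward version), which reads near transcript 3′ ends, so levels are not scaled by length. The submitters' processing notes name cutadapt 4.2, Bowtie2 2.3.5.1 and hg19. The table deposited by the authors holds raw counts, and annotation, strand, multiply aligned reads and molecular identifiers in counting are not given in the sources used here. Totals were 3733499, 2455627, 4393252, 4988062 and 2766254 counts (NTC replicates 1 to 3, sgJUN#1 replicates 1 and 2). All replicate pairs differed beyond counting noise (chi-square per degree of freedom at least 8.22).

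Symbols were assigned to 23308 of 23459 genes from RefSeq names (GRCh38.p14), and gene positions are GENCODE version 44 on GRCh37 (hg19). Counts were tested with edgeR 4.0.16 in R 4.3.3 (TMM, filterByExpr, robust quasi-likelihood F test, group as the only term). P-values were adjusted over all 13616 tested genes, with 0.05 as the threshold. The log2 ratio is the fitted log2 fold change of sgJUN#1 over NTC, its SE is its size over the square root of F, and CPM used TMM-scaled library sizes. The script was tested on simulated data. Alternatives were DESeq2 1.42.0 (named in the methods of the study), limma-voom 3.58.1, other scalings and filters, a replicate block and leaving out each library. Counts at an unadjusted p-value under 0.05 were followed over the alternatives after seeing the data. Members and lists were chosen with earlier results of these data known. The named genes were the 9 members, JUN, called genes and the 4 largest fold changes of each list, and fixed partners. Others, including the further NRF2 targets outside the 4 largest, were named after their values were seen. A gene of the list of further targets is not reported here.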

Additional observations from a re-analysis of the deposited data

How the results depend on the processing

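Over 13 alternatives, 7 of the 9 core genes kept a log2 fold change below 0 in every fit that gave one. With single libraries left out, HMOX1 ran from -2.06 to 0.13 (above 0 without sgJUN#1 replicate 2) and SRXN1 from -0.46 to 0.039 (above 0 without sgJUN#1 replicate 2 or NTC replicate 2, at 0.03). HMOX1 had no value with at least 10 counts in every library. The number of core genes called was 1 (SLC7A11) instead of 0 with DESeq2, without a filter and with the replicate block, and from 0 to 1 when single libraries were left out. For the further NRF2 targets it was 3 with DESeq2, 3 without a filter (FTL, TKT and PIR), 2 with the replicate block (FTL and PIR) and from 0 to 1 with single libraries left out. Over all genes 28 were called, and 136 with DESeq2, 148 without a filter, 18 with at least 10 counts in every library, 103 with the replicate block (0.756% of those tested) and from 10 to 57 with single libraries left out. JUN passed the threshold with DESeq2 (log2 fold change 3.24), limma-voom (3.47), the replicate block (2.82) and without NTC replicate 2 or 3, and ran from 2.85 to 3.68 with single libraries left out. What causes these differences was not tested.

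The replicate numbers are shared by 2 pairs, and the library identifiers within each pair are adjacent. The labels do not tie a number to a day or batch. The difference between replicates 1 and 2 in NTC correlated with that in sgJUN#1 by 0.0146 over genes, so samples were not treated as paired. With the replicate block the log2 fold change of SLC7A11 was -1.62 (edgeR adjusted p-value 0.0355), that of FTL -1.06 (0.0119) and that of PIR -1.23 (0.0254). NTC replicate 3 has no sgJUN#1 library with its number, so in this fit it adds nothing to the group difference. The block is therefore close to leaving out that library, where SLC7A11 had -1.59. The few libraries and the 4 to 32 counts of HMOX1 limit what can be detected.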
